A study of Mus musculus with 3 samples.

Results

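Integrins are cell surface receptors built from an alpha and a beta chain that tie the cytoskeleton to the surrounding matrix. Basement membranes are thin sheets of laminin and collagen IV networks, joined by nidogens and by the heparan sulphate proteoglycans perlecan and agrin, on which endothelium rests and which, in lymph nodes, also wrap the reticular fibres made by fibroblasts. Syndecans are transmembrane heparan sulphate proteoglycans that bind matrix and growth factors beside the integrins. The genes described here were chosen by name, as all gene names on the array that begin with Itga, Itgb, a laminin chain or a collagen IV chain, or that are Nid1, Nid2, Hspg2, Agrn or Sdc1 to Sdc4. The pattern found 57 of the 28084 gene names on the array, covered by 118 probes. Of these, 26 are integrin chains, 11 laminin chains, 6 collagen IV chains, 4 nidogen, perlecan or agrin genes and 4 syndecans. The remaining 6 share only the start of the name (Itgb1bp1, Itgb1bp2, Itgb1bp3, Itgb3bp, Itgbl1 and Col4a3bp). They encode integrin-binding, integrin-like or unrelated proteins, and are counted as members because the pattern takes them.

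Expression was measured in stromal cells of the mesenteric lymph node of wild-type C57BL/6NCrl mice, with no treatment named in the labels. Fibroblastic reticular cells (FRC) were sorted as gp38 positive and CD31 negative, lymphatic endothelial cells (LEC) as positive for both and blood endothelial cells (BEC) as gp38 negative and CD31 positive, all from the CD45-negative, CD24-negative fraction. The labels report that the sort was not fully pure and do not give the number, age or sex of the mice or how many were pooled. Each population had 1 single-colour Agilent array. Nothing repeats a population, so the differences carry no error between animals or sorts and none was tested.

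A level is the log2 signal of a probe less the 75th percentile of its array, so that 0 is a signal at that percentile, and levels are compared only within a probe. Levels given as 3 values without names are in the order FRC, LEC, BEC. A difference is called at 4-fold, which is 2 on the log2 scale. Where the dimmer array had no probe of the gene well above background, the lowest such signal there takes its place and the fold is a lower bound, written "at least". That lowest signal was at -4.34 for FRC, -4.20 for LEC and -4.38 for BEC. Probes spotted 10 times on each array had a median SD of 0.06 between spots on every array, which covers spot error and nothing of animals, sorts or amplification. In sorted bulk RNA, fewer cells of a type and less RNA per cell cannot be told apart.

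Summed over 10 fibroblastic markers, the level in units of the 75th percentile came to 2645 (FRC), 221 (LEC) and 64.6 (BEC). Summed over 8 lymphatic markers it was 1.99, 260 and 22.9, and over 9 blood endothelial markers 183, 165 and 1089. Each sum was thus highest in the population its list is named for, though not every gene was. Thy1, a fibroblastic marker, was at least 4-fold higher in LEC than FRC. Pdpn, in both the fibroblastic and the lymphatic list, was highest in FRC, with LEC minus FRC at -0.35. The blood endothelial sum was nevertheless about as high in FRC as in LEC, where Ly6c1 and Cd34 were the genes of that list at least 4-fold higher in FRC. All 10 FRC markers were well above background on both endothelial arrays, and the part of such cells in the differences below was not tested.

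Of the 57 members, 43 were well above background on all 3 arrays, 7 on some and 7 on none. The 7 dim members were Lama1, Itga10, Itgam, Itgb2l, Itgb6, Itgb1bp2 and Itgb1bp3. A difference of at least 4-fold between some pair of populations was found for 25 of the 50 members that were compared, beside 17.9% of all gene names compared. Of the 25, 9 were highest in FRC, 7 in LEC and 9 in BEC. Of the 3431 gene names so called, 43.9% were highest in FRC, 21.9% in LEC and 34.3% in BEC. The other 25 members that were compared spanned 0.10 to 2.29 on the log2 scale over the 3 arrays, with a median of 0.81. The gene at the top of that range is Itgb8, whose LEC and BEC signals were both below the detection mark.

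Laminins are trimers of an alpha, a beta and a gamma chain, and the alpha chain sets which receptors bind. The alpha chains did not follow a single order over the populations. Lama2, the alpha chain of muscle and mesenchymal basement membrane, was at 2.66 for FRC, -1.94 for LEC and -2.90 for BEC. It was 24.2-fold higher in FRC than LEC and 47.2-fold higher than in BEC, and its other detected probe went the same way. Lama5, an alpha chain of endothelial and epithelial basement membrane, ran the other way, from 1.52 in FRC to 2.24 in LEC and 4.11 in BEC, 6.00-fold higher in BEC than FRC. Lama4, the alpha chain that endothelium shares with mesenchyme, was at 4.62, 4.76 and 4.20 and differed by at most 0.55 between any pair. Lama3, an alpha chain best known from epithelium, was at -1.23 for FRC, -2.52 for LEC and 1.31 for BEC, which made it 5.82-fold higher in BEC than FRC and 14.3-fold higher than in LEC. Its other probe did not show this, at -2.79, -2.19 and -2.25, so the Lama3 difference rests on 1 of its 2 probes, and the mean over probes was not called.

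Lamb3, a beta chain best known from epithelium, had its lowest signal in BEC, where the standing Lama3 probe had its highest. It was at -2.10 in FRC and -0.11 in LEC and was not well above background in BEC. It was at least 19.3-fold above BEC in LEC and at least 4.85-fold above it in FRC, while LEC over FRC was 3.98-fold, just under the threshold and past it with scaling on detected probes. The FRC call against BEC was lost with normexp, and both calls against BEC are bounds that end where detection on both arrays is required. Because this chain is abundant in epithelium, 8 epithelial and mesothelial markers were read beside it. Their summed level came to 12.03, 6.15 and 3.21. All 8 were lower in LEC than FRC, the opposite direction to Lamb3, and Lrrn4 was at least 4-fold lower. In LEC against BEC 7 were higher in LEC and 1 in BEC, and 2 were at least 4-fold higher in LEC, Krt8 and Lrrn4. In FRC against BEC, where Lamb3 was also called, 5 of the 8 were at least 4-fold higher in FRC (Krt8, Krt18, Upk3b, Msln and Lrrn4). Epcam and Cdh1, which define epithelium, were well above background in FRC, at -3.64 and -2.81 in LEC and not well above background in BEC. The part of such cells in the Lamb3 values was not tested.

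The chains common to most laminins were called in no pair. Lamb1 (listed as Lamb1-1) was at 4.42 for FRC, 3.39 for LEC and 3.11 for BEC. Lamc1, the gamma chain of nearly all vascular laminins, was at 5.88, 4.51 and 5.61. Neither reached 4-fold between any pair, nor did Lamb2 (2.90, 1.99 and 3.14) or Lamc3 (-2.95, -2.84 and -2.50).

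Collagen IV is built from 6 chains, of which Col4a1 and Col4a2 form the trimer of vascular and most other basement membranes. Col4a2 was at 3.44 for FRC, 3.30 for LEC and 5.66 for BEC, 4.64-fold higher in BEC than FRC and 5.13-fold higher than in LEC. Col4a1 had the same order, at 5.45, 4.95 and 6.76, with BEC minus FRC at 1.30 and LEC minus BEC at -1.80, below the threshold. Its other probe read 3.49 and -2.70 for the same differences, and the mean over probes passed 4-fold in both. The pair is transcribed head to head from neighbouring starts, and the BEC array had the highest signal for every probe of both genes. Col4a5, a chain of kidney and smooth muscle basement membrane, was at -1.35, -1.95 and -3.51 and 4.49-fold higher in FRC than BEC, a call lost with normexp. Its head-to-head partner Col4a6 lay between -0.19 and -0.09 on all arrays by its standing probe. Another Col4a6 probe detected on all arrays read -0.38, -0.82 and -1.83, with BEC minus FRC at -1.46. Col4a3 was at -2.67 in FRC and -3.91 in BEC and was not well above background in LEC, with no difference of 4-fold. Col4a4 gave conflicting readings. The probe that stands for it was at 3.41, 3.18 and 3.41, whereas its other probe was at -0.52 in FRC and not well above background in LEC or BEC.

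Among the molecules that join the networks, agrin was higher in both endothelia and perlecan in BEC. Agrn was at 3.14 for FRC, 5.90 for LEC and 5.71 for BEC, 6.80-fold and 5.96-fold higher in the endothelia. Hspg2, which encodes perlecan, was at 4.02, 4.69 and 6.69, so that BEC stood 6.36-fold above FRC and 4.01-fold above LEC, while LEC minus FRC was 0.67 and not called. The BEC over LEC value lies at the threshold and was lost with quantile normalization, with the deposited series matrix and with scaling on detected probes. Nid1, the nidogen that links laminin to collagen IV, was highest in FRC, at 7.34 against 5.61 and 5.30, and 4.11-fold higher in FRC than BEC. Its relative Nid2 was at 2.14, 2.33 and 2.79 and was not called.

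**Figure D1:**
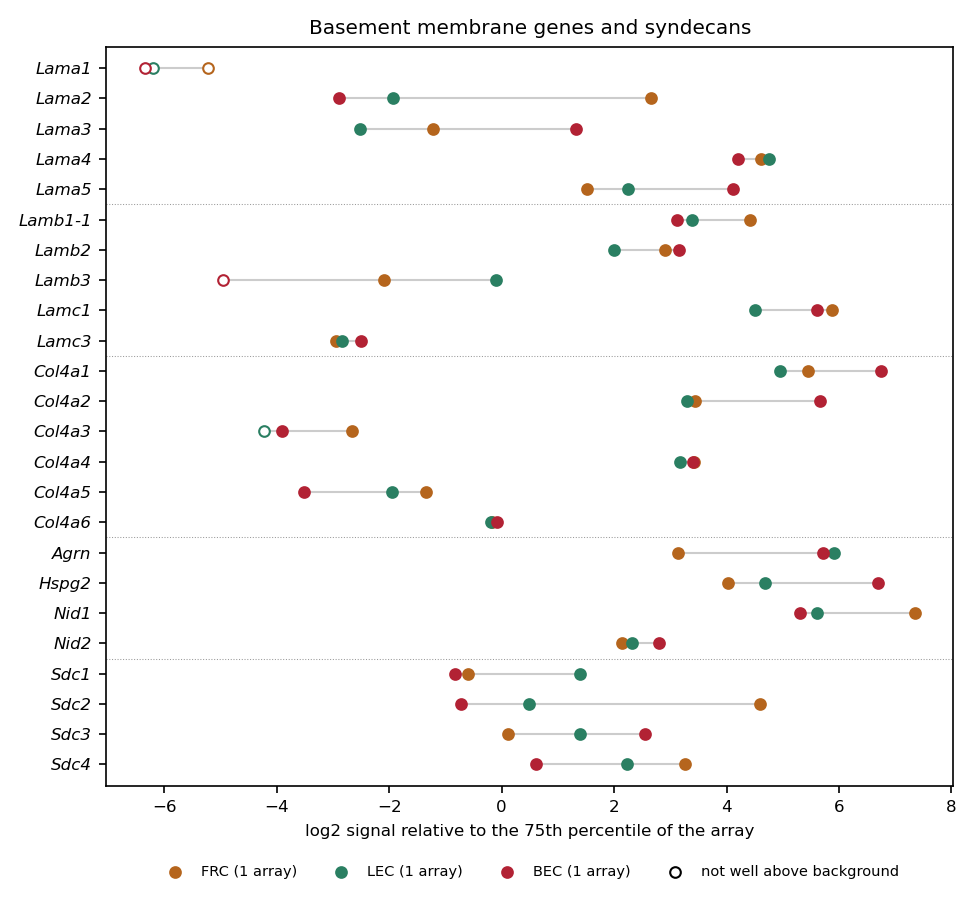
Level of the basement membrane genes and syndecans, 1 not shown, on the FRC, LEC and BEC arrays (horizontal axis, log2 relative to the 75th percentile of the array), 1 point per array, with dotted lines between roles; open points were not well above background. Lama2, Nid1 and Sdc2 are highest in FRC, Agrn is high in both endothelia, and Lama5, Hspg2 and Col4a2 are highest in BEC.

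Each of the 4 syndecans was called in some pair, and no population was highest for all. Sdc2, the syndecan of mesenchymal cells, was at 4.60 for FRC, 0.49 for LEC and -0.72 for BEC. FRC exceeded LEC by 17.2-fold and BEC by 40.0-fold, and the other probe read -4.02 and -5.76 on the log2 scale against -4.11 and -5.32 for the standing probe. Sdc4, a focal adhesion syndecan, had the same order, at 3.27, 2.24 and 0.61, and was 6.29-fold higher in FRC than BEC. Sdc3 ran from 0.11 in FRC to 1.40 in LEC and 2.55 in BEC, 5.39-fold higher in BEC than FRC. The other Sdc3 probes gave 0.75 and 0.97 on the log2 scale for this difference, and the mean over probes was not called. The probe that gave 0.97 was not well above background in FRC, so that size is uncertain. Sdc1, best known from plasma cells and epithelium, was at -0.61 for FRC, 1.40 for LEC and -0.82 for BEC. It was 4.02-fold higher in LEC than FRC, a call lost with median scaling and with normexp, and 4.66-fold higher than in BEC, lost with normexp.

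By their standing probes, the 3 alpha chains that bind laminin had their lowest signal in FRC and their highest in BEC. Itga6, which pairs with Itgb1 or Itgb4 to bind laminin, was at 0.83 for FRC, 2.87 for LEC and 4.98 for BEC. BEC exceeded FRC by 17.7-fold and LEC by 4.32-fold, and LEC exceeded FRC by 4.10-fold. The LEC over FRC call was lost with normexp and with the mean over probes. The BEC over LEC call was lost with the mean over probes, quantile normalization and the deposited series matrix, and the other detected Itga6 probes read only -0.51 and -0.48 for LEC minus BEC. Itga3, the other receptor chain for laminin, was at -1.85, 0.72 and 1.63, with LEC 5.94-fold and BEC 11.2-fold above FRC. The LEC call was lost with normexp. Itga7, the laminin receptor of muscle, was at -2.70, -2.23 and -0.92 and was not called. Its other probe, at -2.87, -3.07 and -1.02, was lowest in LEC. Itgb4, the hemidesmosomal beta chain that pairs only with Itga6, was at 2.36 for FRC, 4.90 for LEC and 4.79 for BEC. It was thus 5.81-fold and 5.39-fold higher in the endothelia and differed by 0.11 between them.

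Of the 3 collagen-binding alpha chains that were compared, 1 was called. Itga11, the fibrillar collagen receptor of fibroblasts, was at 4.10 for FRC, -0.89 for LEC and -1.19 for BEC. FRC exceeded LEC by 31.9-fold and BEC by 39.1-fold, on the single probe of the gene. Itga1, a collagen IV receptor, went from -0.04 to 0.74 and 1.29 and was not called, although its other 3 probes gave 1.89 to 2.17 for BEC minus FRC. Itga2 was near background, at -3.68 in LEC and -4.06 in BEC, and was not well above it in FRC. Itga10 was well above background on no array.

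Integrins that recognise the Arg-Gly-Asp motif of fibronectin, vitronectin and fibrinogen differed by chain. Itga2b, known as the platelet fibrinogen receptor chain and also as a surface protein of lymph node lymphatic endothelium, was at -3.57 for FRC, 3.07 for LEC and -1.90 for BEC. Its LEC signal was 99.6-fold that of FRC and 31.4-fold that of BEC, which was the widest of the measured differences among the members in both pairs. The Itga2b probe lay on chromosome 11 at 102319453 to 102319661 (mm9). Its partner chain Itgb3, also a partner of Itgav, was at 1.51, 2.38 and 1.80 and was not called. Platelet markers were read beside Itga2b. Their summed level over 9 genes came to 3.11, 12.9 and 9.19, with 5, 6 and 6 genes well above background. Pf4 was at 1.30, 3.57 and 3.05 in FRC, LEC and BEC. Gp1ba was detected in LEC alone, at -1.17, whereas the LEC signals of Gp5, Gp6 and Gp9 were below that mark. Ppbp went against Itga2b between the endothelia, at -4.03 in LEC and -1.81 in BEC, or 4.63-fold higher in BEC. The part of platelets in the Itga2b value was not tested.

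Itga5, the classical fibronectin receptor chain, was at -2.18 for FRC, -1.33 for LEC and 0.69 for BEC. BEC exceeded FRC by 7.29-fold and LEC by 4.05-fold, and the latter was lost with normexp and with scaling on detected probes. Itgav, the alpha chain of the vitronectin receptors, was at 1.08, -0.21 and -1.79 and 7.32-fold higher in FRC than BEC. Its other detected probe gave 0.36 the other way, and the mean over probes was not called. Itgb5, which pairs only with Itgav, was at 5.14 for FRC, 0.59 for LEC and 2.56 for BEC. FRC exceeded LEC by 23.4-fold and BEC by 5.96-fold. LEC was the lowest here, and its difference from BEC, -1.97, passed 4-fold with median scaling. Itga8, a mesenchymal chain, was at 0.05, -0.73 and -0.77 and was not called. Itgb8 was well above background in FRC alone, at -2.93, and its bounds of 1.27 over LEC and 1.45 over BEC on the log2 scale were below the threshold.

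Itga9, a chain known from lymphatic valves that binds tenascin C and fibronectin, was at 0.92 for FRC, 4.08 for LEC and 1.38 for BEC. LEC exceeded FRC by 8.91-fold and BEC by 6.47-fold, and its other probe read 2.85 and 4.27 on the log2 scale for the same pairs. Itga4, its closest relative and a receptor for VCAM-1, was near background at -3.59 in LEC and -3.68 in BEC. Itgb1, the shared partner of most alpha chains, was at 2.12, 2.65 and 2.39 and differed by at most 0.53.

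The integrins of leukocytes were called in a single case. Itgal, the alpha chain of LFA-1, was at -2.15 for FRC, -1.92 for LEC and -0.80 for BEC, and its partner Itgb2 at -1.74, -0.97 and -0.98. Itgax was at -3.03, -2.83 and -3.07, Itgae was well above background in BEC alone, and Itgam nowhere. Of these only Itgb7, the beta chain of the gut-homing receptor, was called, at -2.36, -1.59 and 0.05, or 5.32-fold higher in BEC than FRC, which was lost with normexp. Leukocyte markers were read beside it. Their summed level over 13 genes came to 10.5, 17.2 and 20.3. In BEC against FRC, 11 of the 13 were higher in BEC and 2 in FRC. There 5 of the 13 passed 4-fold in BEC over FRC, beside 6.58% of all gene names. Among them was Ptprc, which encodes CD45, at -2.36, -1.57 and 0.23. Between the endothelia 6 of the 13 were higher in LEC and 7 in BEC, while Itgb7 had LEC minus BEC at -1.64. The part of leukocytes in the Itgb7 value was not tested.

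**Figure D2:**
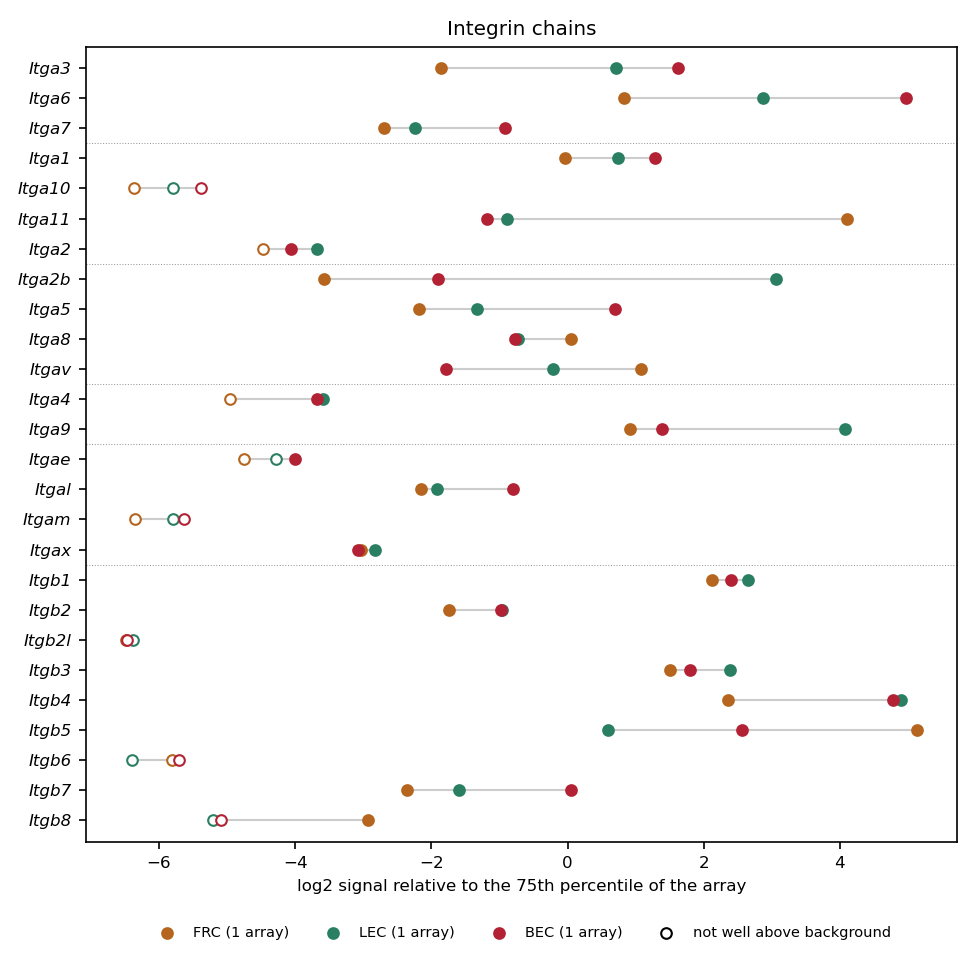
Level of each integrin chain on the FRC, LEC and BEC arrays (horizontal axis, log2 relative to the 75th percentile of the array), 1 point per array, with dotted lines between groups of chains; open points were not well above background. Itga11 and Itgb5 stand apart in FRC and Itga2b and Itga9 in LEC. Itga6 rises from FRC through LEC to BEC, while Itgb1 and Itgb3 points lie close together.

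Across the members, 49 could be compared between LEC and FRC. Of these, 7 were at least 4-fold higher in LEC, beside 4.89% of all gene names compared, and 5 at least 4-fold higher in FRC, beside 5.93%. The 7 were Agrn, Sdc1 and the integrin chains Itga2b, Itga3, Itga6, Itga9 and Itgb4. The 5 were Lama2, Sdc2, Itga11, Itgb5 and Itgbl1, a secreted integrin-like protein at 0.46 in FRC and not well above background in either endothelium. Between BEC and FRC, 11 of 50 were higher in BEC, beside 6.58%, and 11 in FRC, beside 7.57%. Both sides held 5 of the 20 basement membrane members compared. Between LEC and FRC, 1 of 20 basement membrane members was called on each side, near the shares of all gene names. In that pair 5 of 21 integrin chains were higher in LEC and 2 in FRC. Between the endothelia, 5 of 48 members were higher in LEC, beside 3.39%, and 5 in BEC, beside 3.38%. The 5 in LEC included Itga2b, Itga9, Lamb3 and Sdc1, and the 5 in BEC were Col4a2, Hspg2, Itga5, Itga6 and Lama3. The members' median log2 difference was 0.18 from FRC to LEC and 0.29 from FRC to BEC, beside 0.02 and 0.09 over all gene names. For LEC minus BEC it was -0.14, beside -0.07. Both comparisons with FRC rest on the same FRC array. At 2-fold, 9 of 49 members were higher in LEC and 13 in FRC, beside 13.0% and 13.3% of all gene names. Between BEC and FRC the 2-fold counts were 16 and 14 of 50, beside 16.8% and 16.5%. Between the endothelia 9 of 48 were higher in LEC, beside 2009 of 18325 gene names, and 14 in BEC, beside 10.2%. Under normexp the LEC count against FRC was 4, and with quantile normalization, the series matrix or scaling on detected probes the BEC count against LEC was 3.

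**Figure D3:**
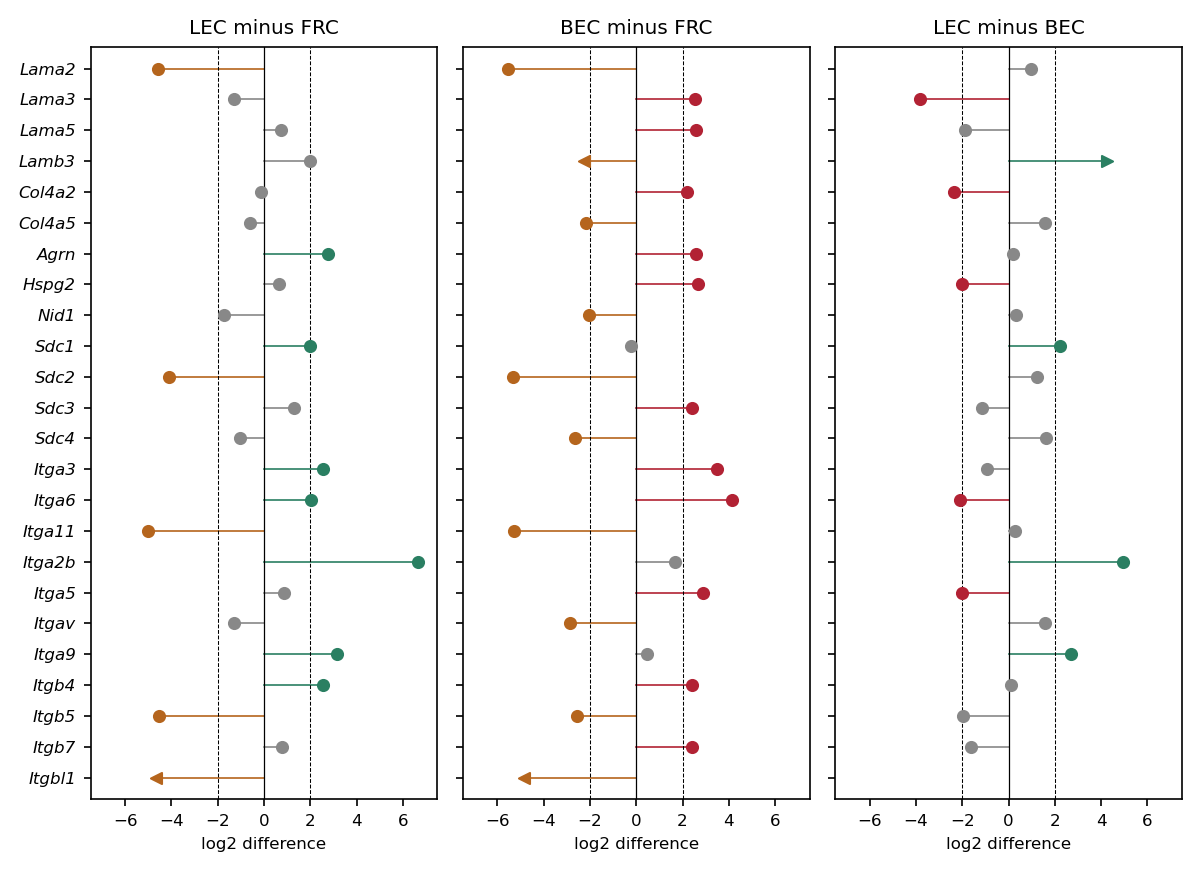
Log2 difference (horizontal axis) for the members at least 4-fold apart in some pair, 1 not shown, for each pair of populations; coloured points passed 4-fold (dashed lines, FRC brown, LEC green, BEC red), grey points did not, and arrowheads are lower bounds. Lama2, Sdc2, Itga11, Itgb5 and Itgbl1 point to FRC against both endothelia, and Itga2b to LEC against both others.

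**Figure D4:**
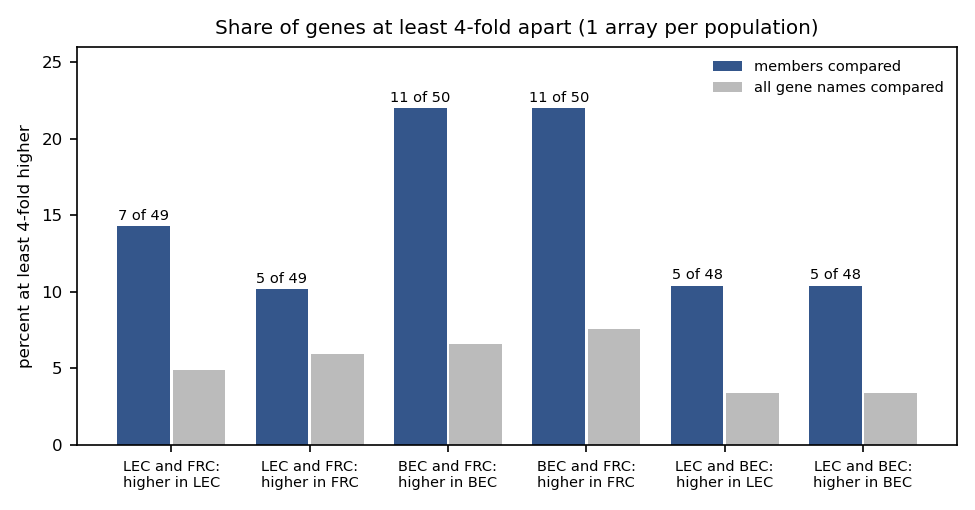
Percent of compared genes at least 4-fold higher (vertical axis) in each direction of the 3 pairs, for the members (blue, with counts) and for all gene names (grey), from 1 array per population. The member bars run from 5 of 49 to 11 of 50 and the grey bars from 3.38% to 7.57%.

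Where members had several detected probes, directions mostly held. For the called members with another detected probe, all probes had the same direction for 6 of 6 between LEC and FRC, 10 of 11 between BEC and FRC and 4 of 5 between the endothelia. The exceptions were Itgav and Lama3. The first 30 of the 60 bases of the detected probes of Col4a4, Itgav and Itga3 follow as the files list them. Each is given with the position of the whole probe on mm9. The Itga3 probes had the same direction in the called pairs and differed in size, and the Lama3 probes are not shown. The positions were not placed in exons or UTRs here. The listed span of the standing Col4a4 probe is shorter than the probe, and that of the second Itga3 probe is longer. The standing Itga3 probe and the last one listed had the larger differences, 3.48 and 5.63 for BEC minus FRC, against 0.57 for the probe listed between them. The last one was not well above background in FRC, at -4.72, so the size of its difference is uncertain.
Col4a4 probe that stands for the gene (chr1:82447298-82447326): tacatgtggagttgctcccccttctccttt
Col4a4 other probe (chr1:82445053-82445112): atgaagttgtgtgtatgtatgtattacgtg
Itgav probe that stands for the gene (chr2:83646133-83646192): gggaatttagtggcaaagtatatattggta
Itgav other probe (chr2:83581760-83581819): aaagagtggtataatctagtccaaaagatg
Itga3 probe that stands for the gene (chr11:94905987-94906046): agacttaactctgctcccttgaccacagag
Itga3 other probe (chr11:94915485-94917062): cccgtactcctgactttgcaggtggactac
Itga3 other probe (chr11:94906314-94906373): caggtcgccggaatgggctttatgggtgca

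**Figure D5:**
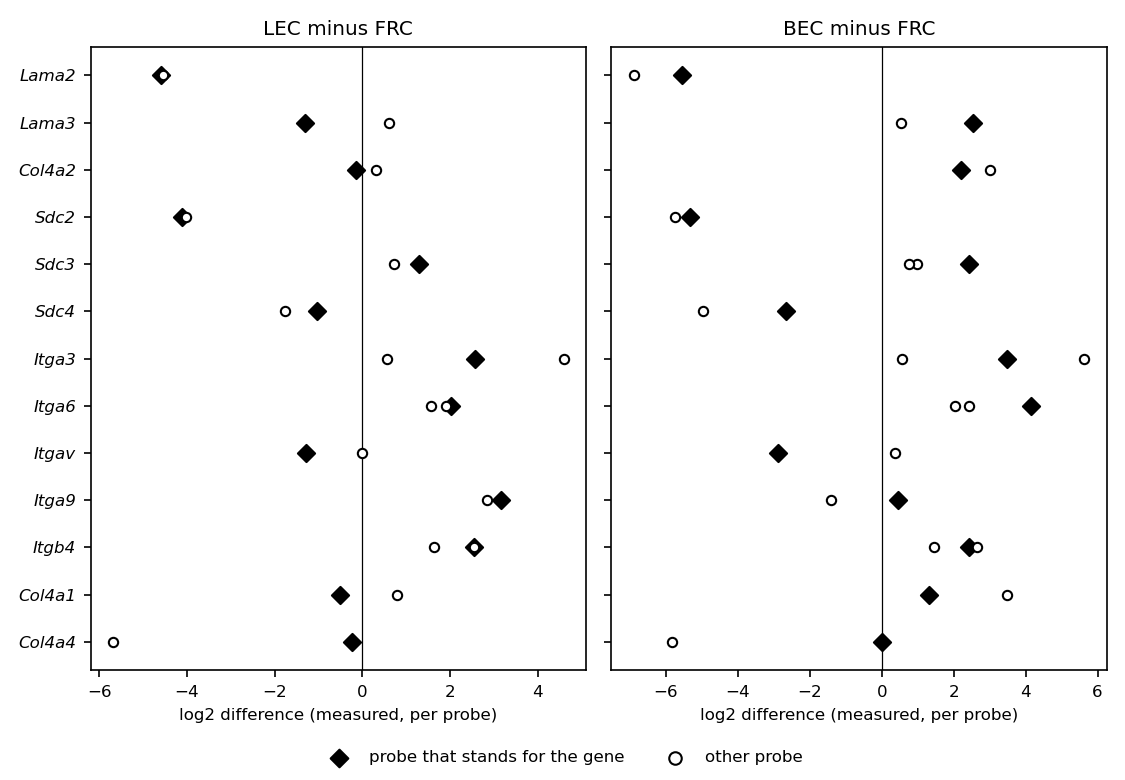
Measured log2 difference of every probe well above background on either array, for called members with several such probes, 1 not shown, and for Col4a1 and Col4a4; diamonds are the probes that stand for the gene and circles the others. The circles of Sdc2, Lama2 and Itgb4 lie on the side of their diamonds, whereas those of Itgav and Col4a4 do not follow them in BEC minus FRC.

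Of the 25 called members, 20 had a promoter window in the RefSeq table, and in 6 of these the window began at the outermost start of the gene and overlapped no other gene model. These 6 are shown because they include members highest in each population, Itga11, Itgb5 and Sdc4 in FRC, Itga2b in LEC and Itga5 and Sdc3 in BEC. Each sequence is the 250 bases before the start, 5′ to 3′ along the gene, from RefSeq on GRCm38.p6. Capitals mark matches on either strand to the GC box GGGCGG, to the box CCAAT, to AGATAA, which holds the core bound by factors of the GATA family, and to AGGAAG, which holds the core bound by factors of the ETS family.
Itga11 (chr9:62677605-62677854, plus strand): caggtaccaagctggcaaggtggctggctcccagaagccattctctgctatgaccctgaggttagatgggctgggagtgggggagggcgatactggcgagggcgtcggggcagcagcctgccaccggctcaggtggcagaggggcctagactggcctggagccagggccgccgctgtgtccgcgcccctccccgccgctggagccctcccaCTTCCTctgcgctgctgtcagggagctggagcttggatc
Itga2b (chr11:102469884-102470133, minus strand): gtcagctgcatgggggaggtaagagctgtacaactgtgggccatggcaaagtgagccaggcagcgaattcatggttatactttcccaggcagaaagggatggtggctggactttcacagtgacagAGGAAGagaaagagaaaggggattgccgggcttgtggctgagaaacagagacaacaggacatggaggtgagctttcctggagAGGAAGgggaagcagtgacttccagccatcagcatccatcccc
Itga5 (chr15:103366792-103367041, minus strand): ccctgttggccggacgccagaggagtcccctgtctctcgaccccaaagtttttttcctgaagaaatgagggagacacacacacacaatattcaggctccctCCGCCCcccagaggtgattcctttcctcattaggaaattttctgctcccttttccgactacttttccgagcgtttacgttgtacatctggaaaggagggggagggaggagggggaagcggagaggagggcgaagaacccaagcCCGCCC
Itgb5 (chr16:33829415-33829664, plus strand): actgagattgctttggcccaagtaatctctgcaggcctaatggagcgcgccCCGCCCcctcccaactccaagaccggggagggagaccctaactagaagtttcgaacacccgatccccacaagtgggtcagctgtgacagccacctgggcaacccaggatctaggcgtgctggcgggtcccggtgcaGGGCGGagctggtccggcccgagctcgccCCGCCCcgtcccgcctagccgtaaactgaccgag
Sdc3 (chr4:130792287-130792536, plus strand): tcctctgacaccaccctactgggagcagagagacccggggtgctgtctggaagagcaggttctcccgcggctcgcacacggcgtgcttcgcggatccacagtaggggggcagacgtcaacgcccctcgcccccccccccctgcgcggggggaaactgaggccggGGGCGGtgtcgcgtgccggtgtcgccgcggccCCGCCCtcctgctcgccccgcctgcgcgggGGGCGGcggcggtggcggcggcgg
Sdc4 (chr2:164443189-164443438, minus strand): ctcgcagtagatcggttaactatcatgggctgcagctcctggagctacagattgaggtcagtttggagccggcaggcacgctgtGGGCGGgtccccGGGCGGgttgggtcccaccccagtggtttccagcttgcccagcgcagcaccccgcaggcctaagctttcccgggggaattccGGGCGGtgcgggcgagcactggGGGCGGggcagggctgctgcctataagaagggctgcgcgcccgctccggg

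Among the 3 windows of genes highest in FRC, Itga11 held a single AGGAAG and no GC box, while Itgb5 held 3 GC boxes and Sdc4 4. Itga2b held 2 AGGAAG matches and no GC box, Itga5 2 GC boxes and Sdc3 3. Over 42 windows of 38 members, GGGCGG was found in 47.6% against 32.7% of all 32851 windows, CCAAT in 23.8% against 33.8%, AGATAA in 4.76% against 9.99% and AGGAAG in 40.5% against 29.5%. A match is a string of letters and not a bound site.

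The members sit in a wider matrix and adhesion set, read from lists chosen by gene name. Of 22 other basement membrane genes, 18 were compared between LEC and FRC, with 1 higher in LEC and 6 in FRC, beside 4.89% and 5.93% of all gene names. Between BEC and FRC 17 were compared, with 1 higher in BEC and 5 in FRC, beside 6.58% and 7.57%. Tinagl1, a matrix protein related to tubulointerstitial nephritis antigen, was the gene higher in both endothelia, at -4.29 for FRC, 0.51 for LEC and 3.41 for BEC, or 208-fold higher in BEC than FRC. Its FRC level lay just above the lowest signal well above background on that array, -4.34, so the size of this fold is uncertain. Fbln1, a fibulin, was at 6.10, 0.44 and -0.86, and Smoc2, a calcium-binding matrix protein, was at 2.79 in FRC, -3.13 in LEC and not well above background in BEC. Between the endothelia 2 of 16 were higher in LEC and 4 in BEC, beside 3.39% and 3.38%. Those higher in BEC included Vwa1, 13.5-fold, and Col15a1, a collagen of vascular basement membrane, 7.39-fold.

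Other receptors of basement membrane had 7 of 16 higher in FRC than LEC, beside 5.93% of all gene names, and 7 of 16 higher in FRC than BEC, beside 7.57%. In the other direction 1 of 16 was higher in LEC than FRC, Gpc1, beside 4.89%, which is near that share. In BEC 2 of 16 were higher than in FRC, Bcam and Utrn, beside 6.58%. Between the endothelia 1 of 16 was higher in LEC and 2 in BEC, beside 3.39% and 3.38%. Glypicans, lipid-anchored heparan sulphate proteoglycans, led on the FRC side. Gpc3 was at 5.56 for FRC, -0.23 for LEC and -1.30 for BEC, and Gpc6 at 3.01, -1.64 and -3.11. Ddr2, a collagen receptor kinase, was 17.6-fold higher in FRC than BEC. Bcam, a receptor for laminin alpha5 chains, was at -0.68, 1.17 and 3.67, the same order as Lama5, and 20.4-fold higher in BEC than FRC.

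Integrin adaptors and activators, which link integrin tails to actin or switch integrins on, numbered 28 compared. Between LEC and FRC 3 were higher in LEC and 2 in FRC, beside 4.89% and 5.93% of all gene names. Between BEC and FRC 6 were higher in BEC and 2 in FRC, beside 6.58% and 7.57%, and between the endothelia 1 was higher in LEC and 2 in BEC, beside 3.39% and 3.38%. The counts of 2 in FRC are near those shares. Fermt3, the kindlin of blood cells and endothelium, was at least 14.6-fold higher in LEC than FRC, and Parvb, a parvin that binds integrin-linked kinase, at least 22.7-fold higher in BEC. Apbb1ip, the Rap1 effector that recruits talin, was at 2.07 for FRC, -1.60 for LEC and -1.29 for BEC. Lims2, a partner of integrin-linked kinase, was at 3.81, 1.32 and 5.42 and so lowest in LEC.

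Of 23 ligands outside the basement membrane, 6 were higher in LEC and 4 in FRC, beside the same 4.89% and 5.93%. Between BEC and FRC 6 were higher in BEC and 8 in FRC, beside 6.58% and 7.57%, and between the endothelia 4 were higher on each side, beside 3.39% and 3.38%. Icam2, a ligand of LFA-1 on endothelium, exceeded its FRC signal 87.1-fold in LEC and 144-fold in BEC. Vtn, vitronectin, a ligand of integrins with the Itgav chain, was at 5.43 for FRC, 1.02 for LEC and 0.93 for BEC. Svep1, a matrix protein that binds Itga9, was at 6.33, 0.91 and -0.91. Tnc, tenascin C and also a ligand of Itga9, was at 0.90 for FRC, 5.05 for LEC and 1.72 for BEC, the LEC-high order of Itga9 itself.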

How the data were processed

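Single-colour Agilent arrays of the FRC, LEC and BEC populations, 1 each and all on 1 slide, were read from the scanner files. Per the file headers, the deposited intensity values (processed signal) were made with Agilent Feature Extraction 10.7.3.1 by background subtraction and detrending within the array, with surrogates for low values and no scaling between arrays. The deposited series matrix also holds intensity values, on a linear scale with columns of equal distribution a median of 40.2 in each column and a lowest value of 15. For its program, the sources used here name none.

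Control spots and outlier spots were dropped, at a cost of 18 probes, and 41156 probes were kept. Spots of a probe were averaged as log2 intensity, and the 75th percentile of each array was subtracted. That percentile was at an intensity of 387, 268 and 361 for FRC, LEC and BEC, and 60.5%, 59.7% and 60.1% of probes were well above background. The number of arrays limits the precision. A gene name, as in the files, is represented by the probe whose mean level over the arrays is highest. Genes entered a comparison if either array had a probe of theirs well above background, and were called at 4-fold where that representing probe was well above background on the brighter array.

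Members are reported by role, apart from 1 that enters the counts and is not reported here by name. Of other lists, the genes named are among the 4 largest measured differences and 2 largest bounds per list and pair, and Utrn and the marker genes were named after their values were seen. The members and lists were chosen with earlier results of these data known. Positions are on mm9, per the file headers, and were not placed in exons or UTRs. The steps were tested on simulated data. Alternatives were 11 planned and 1 added after seeing the data: other scalings (median, detected probes, quantile), normexp (offset 50, limma 3.58.1), the series matrix, other filters on dim probes, the mean over probes, outlier spots kept, a 2-fold threshold and members left out that are no chains. Python 3.11.15 and pandas 2.3.3 were used.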

Additional observations from a re-analysis of the deposited data

How the results depend on the processing

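No called difference of a member changed direction under any alternative that could give it a value. No paired analysis was possible because each population had 1 array and the labels give no replicate numbers, so no array could be left out either. Normexp gave 4 members higher in LEC than FRC, and a LEC minus BEC median of 0.061. Quantile normalization, the series matrix and scaling on detected probes each gave 3 members higher in BEC than in LEC. That median was -0.018 with the mean over probes, -0.048 without the integrin-named partners and 0.0076 also without Col4a3bp, an alternative added after seeing the data. At 2-fold, 13 members were higher in FRC than in LEC, 9 in LEC than in BEC and 14 in BEC than in LEC. The other matrix and adhesion lists held 108 genes, of which 97 were compared between LEC and FRC and 95 in each other pair. At 2-fold, 21 were higher in LEC than in FRC, beside 13.0% of all gene names. Of these 11 passed 4-fold, beside 4.89%. On the FRC side of that pair 23 of 97 passed 4-fold, beside 5.93%. Between BEC and FRC, 28 were higher in BEC and 41 in FRC, beside 16.8% and 16.5%. There 15 and 27 passed 4-fold, beside 6.58% and 7.57%. Between the endothelia 23 were higher in LEC, beside 2009 of 18325 gene names, and 20 in BEC, beside 10.2%. There 9 and 12 passed 4-fold, beside 3.39% and 3.38%. The LEC minus FRC median over the genes of these lists, -0.25, became -0.0026 once dim probes were kept. Their BEC minus FRC median of 0.02 became -0.17 with the mean over probes. Their LEC minus BEC median of -0.09 became 0.082 with the mean over probes, 0.030 with quantile normalization and 0.029 with the series matrix. Over all gene names, normexp called 550 and 636 in LEC and FRC where 75th percentile scaling called 902 and 1094, 740 and 854 in BEC and FRC where it called 1240 and 1426, and 287 and 324 in LEC and BEC where it called 622 and 620. Keeping dim probes made the LEC count against BEC 1019, over 28084 in place of 18325 gene names, a share of 3.63% against 3.39%. Signal over background limits the members at or near background. Folds against an array without detection are bounds, while those of dim but detected members, such as Itga2 and Itga4 between the endothelia, are measured values. The cause of these changes was not tested.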

Other observations

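Enzymes that modify and cross-link collagen were read as a further list. Of 13 compared between LEC and FRC, none was at least 4-fold higher in LEC, beside 4.89% of all gene names. In FRC 4 were higher, beside 5.93%. Of 12 compared between BEC and FRC, none was higher in BEC and 5 in FRC, beside 6.58% and 7.57%. In lists of this size, a count of none is near the shares for LEC and BEC. Loxl1, a lysyl oxidase that cross-links elastin and collagen, was at 6.06 for FRC, 0.42 for LEC and -1.09 for BEC, 49.9-fold and 143-fold higher in FRC. Loxl2, a lysyl oxidase that acts on collagen IV, was at 4.80, 4.04 and 0.98 and 8.29-fold higher in LEC than BEC. It was the 1 gene called of 13 compared between the endothelia, beside 3.39% of all gene names higher in LEC. Serpinh1, the collagen chaperone, was at 8.40, 6.33 and 7.10.

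Of the 6 members that share only the start of a name, Col4a3bp, a ceramide transfer protein, was at 1.80, 1.99 and 2.61 in FRC, LEC and BEC. Itgb1bp1, an adaptor of the integrin beta1 tail, was at 2.52, 2.32 and 2.86, and Itgb3bp, a centromere protein, at 1.46, 0.83 and 1.00. None of these was called.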
